A study of Mus musculus with 9 samples.

Results

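Homologous recombination copies the sequence of a sister chromatid into a broken DNA molecule, and the Fanconi pathway unhooks covalent links between the strands and hands the resulting breaks to recombination. The genes described here are 36 members of these pathways, chosen by name: the Fanconi core complex and its substrates, the BRCA1-PALB2-BRCA2 group, the paralog complexes of Rad51b, Rad51c, Rad51d, Xrcc2 and Xrcc3, the strand exchange partners, the nucleases that resect ends and cleave joint molecules, and polymerase theta. All 36 were among the 15184 genes listed in a table of normalized RNA-Seq counts of mouse embryonic fibroblasts (MEFs), fibroblasts cultured from mouse embryos. The 3 groups compared, of 3 libraries each, were cells with the label Empty vector (Empty) and the lines SAM1 and SAM2, whose genotype label is Hnrnpk_SAM.

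In the synergistic activation mediator (SAM) system, an inactive Cas9 fused to an activator and a guide RNA bring further activators to the promoter of a chosen gene, here Hnrnpk, which encodes an RNA-binding protein. Wild-type MEFs received the components by lentivirus and were selected with blasticidin and hygromycin. Per the study's methods, the SAM vector of the control carried a nontargeting guide. Those methods print the same sequence for this guide and for the guide sgHnrnpk2. Different guides were used singly in the study, the library protocol in the labels names sgRNA2 for the sequenced cells, and the labels do not say how SAM1 and SAM2 differ. The embryos were at mid-gestation per the study's methods, and nothing in the labels says that libraries of a line came from separate cultures, so the p-values measure the spread between libraries, which may be technical. Where SAM1 and SAM2 are pooled against Empty, that spread also holds any difference between the lines. A gene whose lines differ may thus go without a pooled call.

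Recombination begins when the MRE11-RAD50-NBN complex and CtIP (encoded by Rbbp8) trim an end, after which EXO1 and DNA2 lengthen the single-stranded tail. BRCA1 and BARD1, bridged by PALB2 to BRCA2, prepare this tail for strand exchange, and the paralog complexes, RAD54 and RAD51AP1 support its invasion of the sister. In the Fanconi branch, a core complex with the ubiquitin ligase FANCL and its partner UBE2T modifies the FANCD2-FANCI pair on damaged DNA. Many of these genes are known to be transcribed most strongly in the S and G2 phases, when a sister chromatid is at hand.

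The Hnrnpk transcript, at which the SAM system was aimed, had normalized counts of 25058, 26098 and 26164 in the Empty libraries, 24102, 24044 and 23619 in those labelled SAM1 and 26608, 26859 and 26221 in those labelled SAM2. It was lower in SAM1 than in Empty (-0.11 on the log2 scale, limma adjusted p = 0.00252) and was not called in SAM2 (0.044, adjusted p = 0.159), although its 3 libraries lay above all 3 of Empty. The sign in SAM1 and the call in SAM2 depended on the scaling. With each library scaled to the sum of its listed values the difference was 0.035 in SAM1 (adjusted p = 0.266, limma) and 0.15 in SAM2 (adjusted p = 0.000335), and with quantile normalization 0.094 (adjusted p = 0.00502) and 0.22 (adjusted p = 4.59e-06). On the reads recovered in 8 libraries, SAM1 was lower by -0.11 with edgeR (adjusted p = 0.00673) and with DESeq2 (adjusted p = 0.00327). SAM2 was not called with either (adjusted p = 0.302 with edgeR and 0.334 with DESeq2). The direction of Hnrnpk in SAM1 thus rests on the scaling chosen, and every direction below is one between libraries so labelled. The recovered depth was 41759636 to 49026626 reads on the listed genes in 8 libraries, and the 36 genes had 101 to 2919 reads each in each of these libraries. All 8 fibroblast markers were listed, with summed normalized counts of 1.01e+06 to 1.11e+06 in Empty, 869204 to 925447 in SAM1 and 1.15e+06 to 1.19e+06 in SAM2. The sums hide opposite moves of single markers. In SAM1 every library lay above Empty for Vim, Pdgfrb and S100a4 and below it for Col1a1, Col1a2, Col3a1 and Thy1, while Fn1 overlapped. The leukocyte markers Ptprc and Adgre1, the epithelial markers Epcam and Krt18, the muscle markers Myod1 and Myh3 and the neural crest marker Sox10 were not listed. The 3 endothelial markers, all listed, summed to 266 to 325 in Empty, 4586 to 4964 in SAM1 and 556 to 629 in SAM2, with most of the SAM1 sum from Kdr (176 to 238, 4490.1 to 4877 and 504 to 555). Of the defining markers beside it, Cdh5 was at 71.6 to 84.03, 61.5 to 69.3 and 37.1 to 69.2 in the same order, and Pecam1 at 10.5 to 15.3, 25.4 to 32.6 and 9.28 to 14.8. The 2 neural markers listed, Nes and Tubb3, summed to 2126 to 2287 in Empty, 8858 to 9048 in SAM1 and 8211 to 8414 in SAM2. The listed leukocyte markers summed to at most 800.1 in any library, the epithelial markers to at most 113, and the muscle marker Des to at most 245. Des was at 44.4 to 83 in Empty and 223 to 245 in SAM2, and Cdh1 at 28.4 to 41.9 in Empty and 85.9 to 93.8 in SAM1. Csf1r was at 214 to 237 in Empty and 107 to 118 in SAM2. The part of these markers in the results below was not tested.

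Most of the 36 genes had higher transcript levels in the 6 libraries labelled Hnrnpk_SAM than in the 3 Empty libraries. limma, fitted on log2(normalized count + 1) over all 15184 genes with a threshold of 0.05 on the adjusted p, called 25 of the 36 higher, against 26.8% of all listed genes. It called 3 lower, Fancc, Fance and Mus81, against 27.0% of all genes, and left 8 without a call, so 28 were called in either direction (53.9% of all genes). The median difference of the 36 was 0.53 on the log2 scale, against 0.0087 over all genes. In 26 of them every Hnrnpk_SAM library lay above every Empty library, which 25.9% of all genes did, and in 3 every one lay below (27.2%). A rise of 2-fold or more was called for 8 genes (22.2%, against 8.93% of all genes): Brca1, Polq, Rad51ap1, Rad54l, Fancd2, Eme1, Exo1 and Dna2. Scaling each library to the sum of its listed values gave 29 higher and 0 lower, and without Empty replicate 2 none was called lower. No member reached a 2-fold fall, and the lowest value was -0.26 for Mus81.

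**Figure D1:**
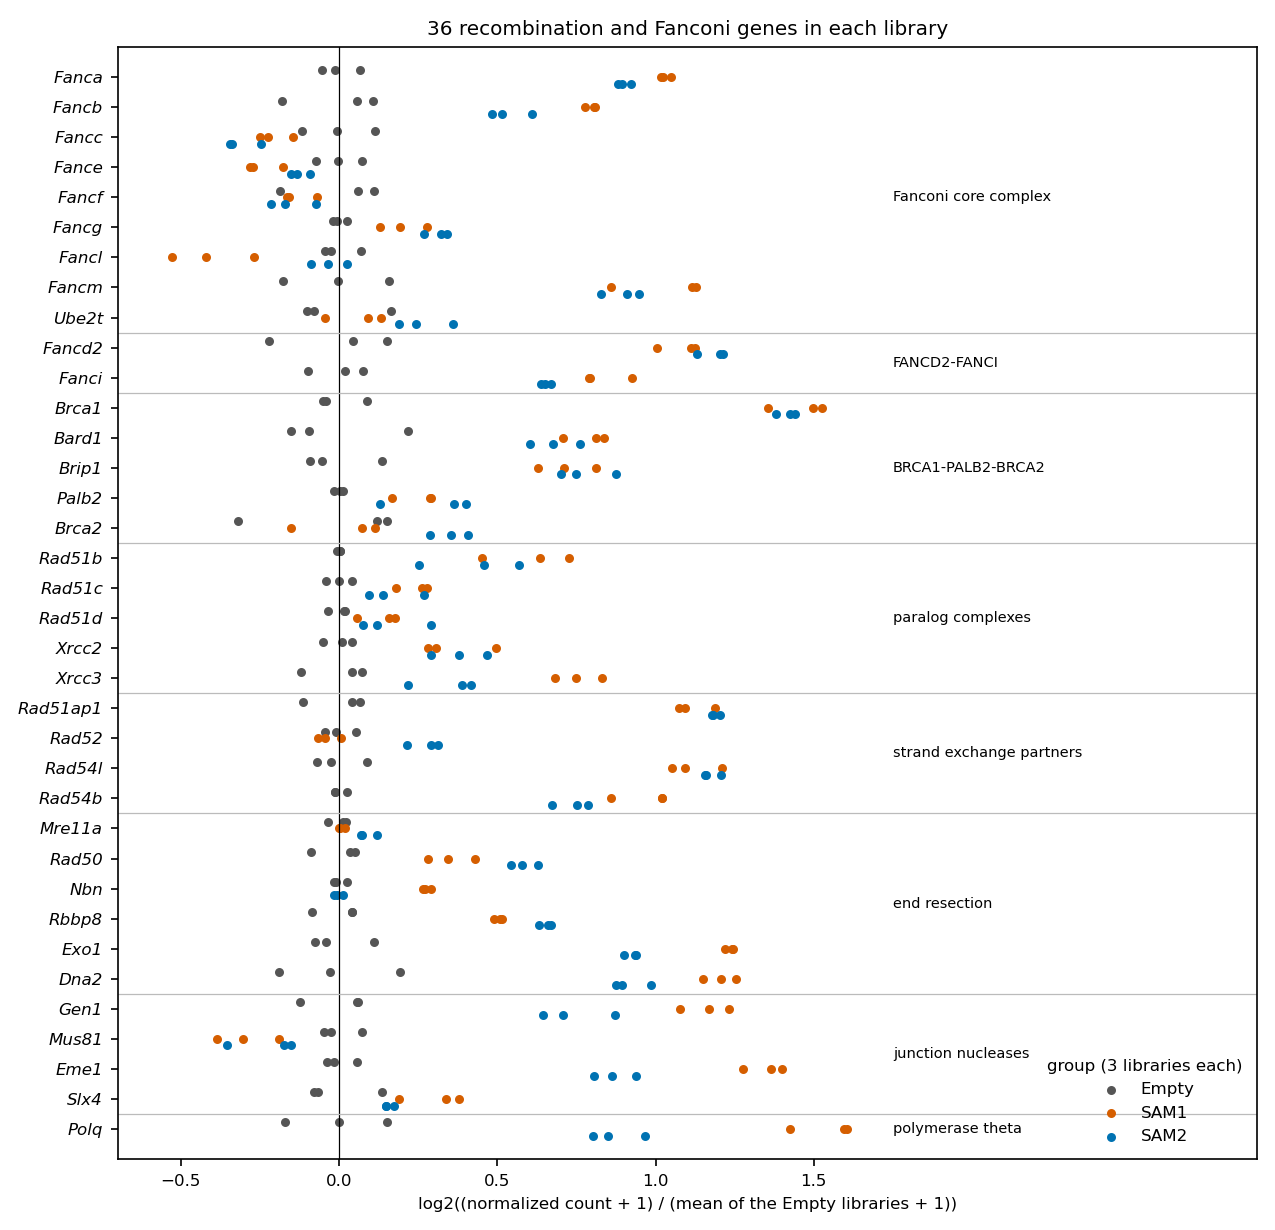
Level of each of the 36 genes in each of the 9 libraries, as the log2 ratio to the mean of the Empty libraries (x axis), with genes grouped by role (y axis). The points of both SAM lines lie right of the Empty points for the 25 called genes, and left of them for Fancc, Fance and Mus81.

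**Figure D2:**
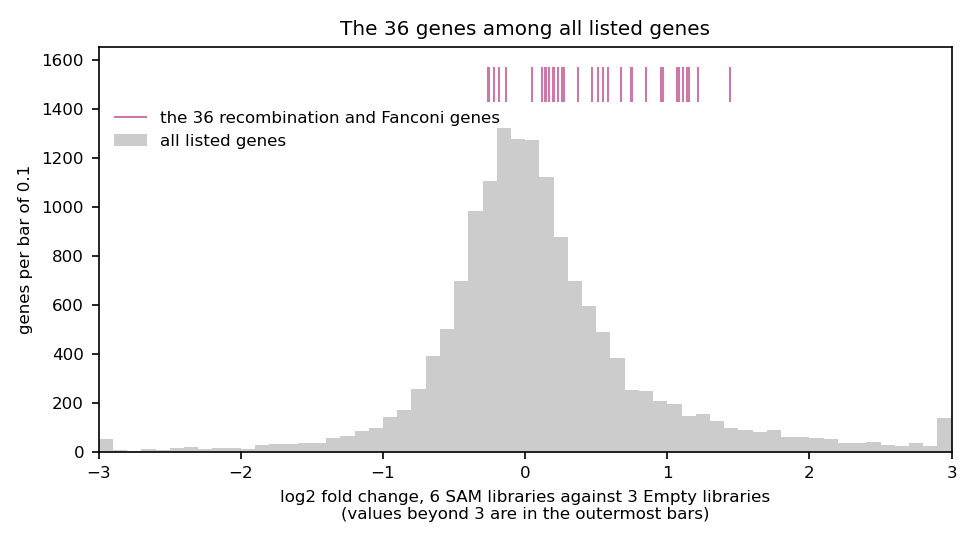
Histogram of the pooled log2 fold change (x axis, 6 Hnrnpk_SAM against 3 Empty libraries) over all 15184 listed genes (y axis, genes per bar), with a tick for each of the 36 genes. The ticks run from -0.26 to 1.44 with a median of 0.53, while the median of all genes is 0.0087.

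Lists of cell cycle genes moved in the same comparison, in which 26.8% of all genes were called higher and 27.0% lower. Of 41 S phase genes listed, without the members Exo1 and Rad51ap1, 31 were called higher and 2 lower, with a median log2 difference of 0.57. Their summed normalized counts were 89099 to 91109 in Empty, 130976 to 131245 in SAM1 and 118518 to 119099 in SAM2. Of 54 G2/M genes, 51 were called higher and 2 lower, with a median of 1.18 and sums of 134895 to 135368, 243820.0 to 246094 and 234168 to 235473. In RNA of whole cultures, more cells in these phases and more of a transcript per cell cannot be told apart, and the part of the cell cycle lists in the values of the 36 genes was not tested.

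Because many of the 36 genes moved together, their promoters were searched for 3 motifs linked to cell cycle transcription, from 250 bases before to 50 after the start of the canonical transcript (GRCm39, both strands). The E2F site, searched as TTTGGCGC, TTTCCCGC, TTTGCCGC or TTTCGCGC, was found in 4 of the 36 (11.1%), against 3.61% of 14774 promoters of listed genes. The cell cycle homology region (CHR), searched as TTTGAA or TTCGAA, was found in 7 (19.4%, against 16.02%), and the CCAAT box in 19 (52.8%, against 39.0%). No match overlapped another in the 36 promoters, and a match is a description of the sequence only. Shown here, 5′ to 3′ along the gene with the matched letters in capitals (reversed and complemented where the match was on the other strand), are the 4 E2F matches, a CHR match of 4 genes that rose, and the CCAAT match of Brca1, the gene with the largest rise.
Bard1 E2F, chr1:71142322-71142351, minus strand: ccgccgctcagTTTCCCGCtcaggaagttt
Brca2 E2F, chr5:150445907-150445936, plus strand: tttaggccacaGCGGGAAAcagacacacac
Fancg E2F, chr4:43010335-43010364, minus strand: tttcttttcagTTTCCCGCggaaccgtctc
Rad51c E2F, chr11:87295303-87295332, minus strand: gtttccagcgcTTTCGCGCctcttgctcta
Bard1 CHR, chr1:71142356-71142385, minus strand: gagccccgcctcTTTGAAggcgtggcctga
Eme1 CHR, chr11:94544902-94544931, minus strand: aacttagtcttcTTCAAAtccggagggatc
Gen1 CHR, chr12:11315767-11315796, minus strand: gaaggcgctggaTTCGAAattactgccggg
Polq CHR, chr16:36831894-36831923, plus strand: attagcttccgaTTCAAAccagaaataagt
Brca1 CCAAT, chr11:101442850-101442879, minus strand: aagactaggtagCCAATcgcaaacccagaa
Whether the matches relate to the size of the rise was not tested, and sites that depart from the searched letters are missed by this search. The 4 genes with an E2F match, Bard1, Brca2, Fancg and Rad51c, had a median pooled log2 difference of 0.23, and the 32 without one 0.57. The median was 0.74 for the 7 genes with a CHR match (Bard1, Eme1, Fancb, Gen1, Nbn, Polq and Rad51b) and 0.37 for the 29 without, with values from 0.14 to 1.21 among those with it. With a CCAAT match it was 0.52, and without one 0.58. The genes with a CCAAT match ran from -0.26 to 1.44 and included Fancc and Fance, which were called lower. Exo1, Dna2 and Fancd2, each called higher by 2-fold or more, held no match of any of the 3 motifs in this window.

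The group around BRCA1 was higher in both lines except for Brca2. Brca1 (chr11:101379577-101442781, minus strand, 23 exons), whose product with BARD1 forms a ubiquitin ligase that promotes resection and recruits PALB2, had the largest pooled difference of the 36 genes. It had 800.0, 730.0 and 725 normalized counts in the Empty libraries, 2169, 1925 and 2122 in SAM1 and 2019.5, 1957 and 2044 in SAM2. Every Hnrnpk_SAM library lay far above every Empty library, and the ranges of the lines overlapped. Pooled, Brca1 was 2.71-fold higher (1.44 ± 0.0535 on the log2 scale, SE, limma adjusted p = 6.44e-08). Bard1, its partner, was 1.67-fold higher (0.74 ± 0.092), and Brip1, a helicase that binds BRCA1, 1.68-fold higher (0.75 ± 0.071). Palb2, which bridges BRCA1 and BRCA2, rose by 0.27, from 185 ± 1.97 (SD, n = 3) to 221 ± 10.6 in SAM1 and 229 ± 22.7 in SAM2. The pooled call for Palb2 was lost without Empty replicate 1 or 3 (adjusted p = 0.058 and 0.0545, limma) and with quantile normalization (adjusted p = 0.246, limma). Its call in SAM1 was lost in 3 alternatives, with limma adjusted p up to 0.514.

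Brca2 (chr5:150446057-150496080, plus strand, 27 exons), which acts on the single-stranded tail, behaved otherwise. Its normalized counts were 1017, 733 and 994 in Empty, 961, 823 and 989 in SAM1 and 1213, 1116 and 1168 in SAM2. All 3 SAM2 libraries lay above the other 6, while SAM1 lay within the range of Empty, whose replicate 2 was the lowest of all 9. Brca2 was higher in SAM2 than in Empty by 0.36 ± 0.106 (SE, log2 scale, limma adjusted p = 0.0076) and was not called in SAM1 (0.026 ± 0.106, adjusted p = 0.833) or pooled (0.19 ± 0.143, adjusted p = 0.276). SAM2 exceeded SAM1 by 0.34 (limma adjusted p = 0.0143), a call that was lost without SAM1 replicate 2 (adjusted p = 0.0516) or SAM2 replicate 1 (adjusted p = 0.0538). Of the exon bases of Brca2, 10.4% are also annotated on the opposite strand, and N4bp2l1, one of the genes there, had nearly the same difference between the lines (0.34, adjusted p = 0.00298, limma). Whether the counting used strand is not given in the sources used here, so reads from a gene and its antisense partner may not be told apart.

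**Figure D3:**
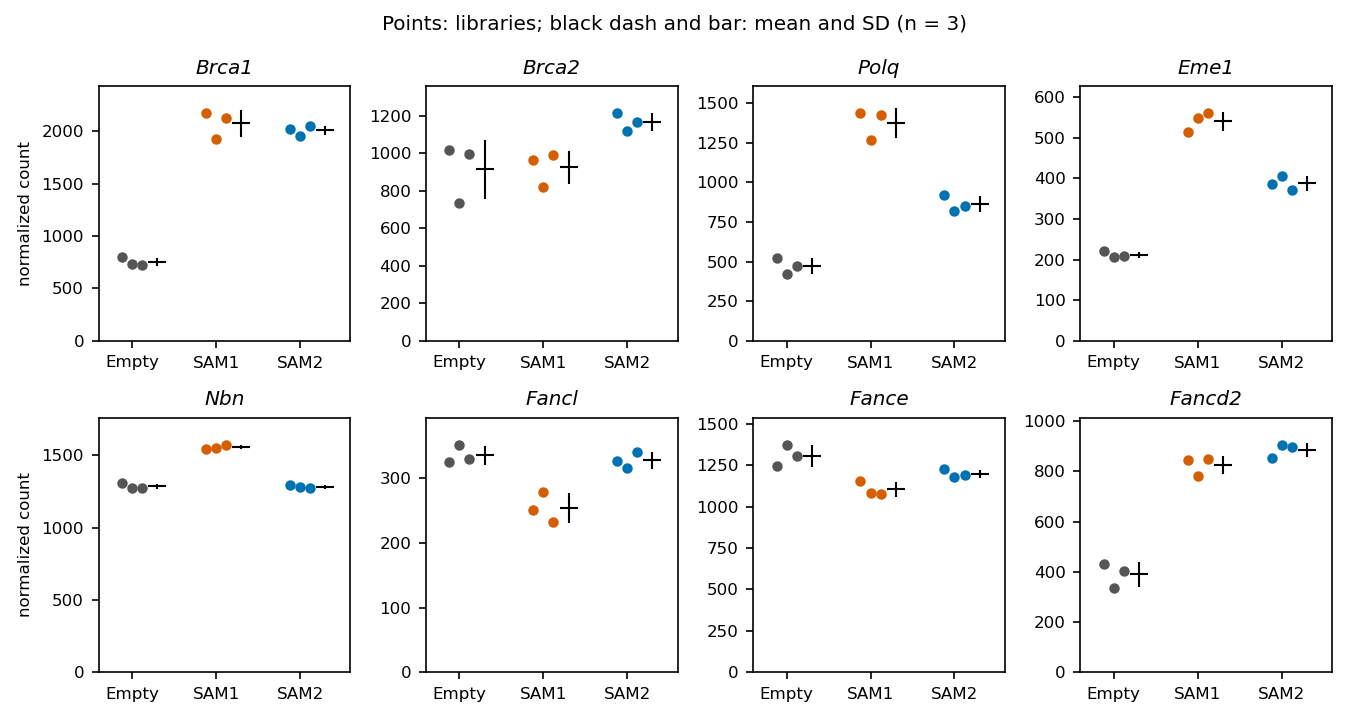
Normalized counts (y axis, from 0) of 8 of the genes in the Empty, SAM1 and SAM2 libraries (x axis), with points for libraries and a dash and bar for mean and SD of 3. Brca1 and Fancd2 are higher in all 6 Hnrnpk_SAM libraries, Polq and Eme1 are higher in SAM1 than in SAM2, and Brca2, Nbn and Fancl were called against Empty in 1 line only.

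The Fanconi core complex, which assembles from modules around the ligase FANCL, did not move as a unit. Of its 9 genes here (UBE2T, the partner of the ligase, and the anchor FANCM included), 4 were called higher pooled, 2 lower and 3 in neither direction, with a median of 0.17. Over all genes 26.8% were called higher and 27.0% lower. Fanca, part of the module that carries FANCG, rose from 858 ± 36.3 to 1753 ± 20.01 in SAM1 and 1603 ± 23.3 in SAM2 (SD, n = 3), 1.95-fold pooled (limma adjusted p = 6.93e-07). Fancm, a translocase that anchors the complex to DNA, was 1.96-fold higher (0.97 ± 0.095), and Fancb, a partner of FANCL, 1.59-fold (0.67 ± 0.102). Fancg rose less, by 0.26 ± 0.0602 on the log2 scale. Zfp276, which shares exon bases with Fanca on the opposite strand (20.2% of those of Fanca), went the other way (-0.20, limma adjusted p = 0.012).

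The module of FANCC, FANCE and FANCF, which links the core complex to FANCD2, contained 2 of the 3 genes called lower. Fancc (chr13:63432857-63645092, minus strand) had 594, 699 and 643 normalized counts in Empty, 551, 583 and 542 in SAM1 and 544, 508 and 510.3 in SAM2. Fance (chr17:28532488-28545546, plus strand) had 1242, 1372 and 1304 in Empty, 1154, 1080.3 and 1073 in SAM1 and 1224, 1176 and 1190.5 in SAM2. Fancf (chr7:51510325-51512015, minus strand, 1 exon) had 506, 488 and 412 in Empty, 420.5, 447 and 418 in SAM1 and 446, 416 and 404 in SAM2. For Fancc and Fance all 6 Hnrnpk_SAM libraries lay below all 3 Empty libraries, with gaps smaller than the spread within Empty, while for Fancf the groups overlapped. The pooled differences were -0.26 ± 0.0684 (SE, log2 scale) for Fancc (limma adjusted p = 0.0107), -0.18 ± 0.0572 for Fance (adjusted p = 0.0216) and -0.14 ± 0.0756 for Fancf (adjusted p = 0.156). Without Empty replicate 2 the adjusted p was 0.0576 for Fancc and 0.099 for Fance, and without Empty replicate 3 it was 0.065 for Fance, so both calls were lost when 1 Empty library was left out. Scaling each library to the sum of its listed values, which raised the pooled median of all genes by 0.12, also ended both calls (-0.13 and -0.061).

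Fancl (chr11:26336135-26421878, plus strand, 14 exons), the ubiquitin ligase of the core complex, was called lower in SAM1 and not in SAM2. It had 324, 351 and 328 normalized counts in Empty, 249.6, 277 and 231 in SAM1 and 326, 314 and 341 in SAM2. All SAM1 libraries lay below the other 6, and SAM2 overlapped Empty. Fancl was lower in SAM1 than in Empty, with a log2 difference of -0.41 ± 0.0751 (SE, limma adjusted p = 0.000276), and higher in SAM2 than in SAM1 by 0.37 ± 0.0751 (adjusted p = 0.000824). Of its exon bases, 74.8% are also annotated on the opposite strand, and Vrk2, a gene annotated there, was lower in SAM1 (-0.26, limma adjusted p = 0.00208) and in SAM2 (-0.19, adjusted p = 0.0158). Ube2t, which encodes the ubiquitin-conjugating enzyme that works with FANCL, was called in SAM2 against Empty (0.27 ± 0.0821, limma adjusted p = 0.01) and not in SAM1. Without SAM2 replicate 1 the adjusted p for Ube2t was 0.0519 (limma), and the call was also lost with quantile normalization and with DESeq2.

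Both genes of the FANCD2-FANCI pair, the substrate of the core complex, rose. Fancd2 (chr6:113508412-113573982, plus strand, 44 exons) had 433, 334 and 402 normalized counts in Empty, 843, 782 and 849.6 in SAM1 and 854, 905 and 898 in SAM2. The lowest Hnrnpk_SAM library lay well above the highest Empty library, and the SAM2 libraries lay just above those of SAM1. Pooled it was 2.203-fold higher (1.14 ± 0.0842, limma adjusted p = 4.1e-06). Fanci was 1.79-fold higher in SAM1 and 1.57-fold in SAM2, from a mean of 374 ± 22.8 in Empty (SD, n = 3). The genes that share exon bases with them on the opposite strand, Emc3 with Fancd2 and Polg with Fanci, were lower (-0.40 and -0.23 pooled).

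Of the 5 genes of the paralog complexes, which assist strand exchange, 4 were called higher pooled and all 5 in SAM2. Over all genes 26.8% were called higher pooled and 35.2% in SAM2. Xrcc3 (chr12:111769626-111780327, minus strand), which pairs with RAD51C, had 103, 116 and 118 normalized counts in Empty, 200.3, 181 and 189 in SAM1 and 147, 131 and 150.3 in SAM2. The groups did not overlap, and SAM2 lay between the other groups. Xrcc3 was 1.69-fold higher in SAM1 and 1.27-fold in SAM2, and the log2 difference of SAM2 from SAM1 was -0.41 ± 0.0925 (SE, limma adjusted p = 0.00183). The call of Xrcc3 in SAM2 against Empty was lost with quantile normalization and with DESeq2. Rad51b rose by 0.52 ± 0.102, Xrcc2 by 0.37 ± 0.067 and Rad51c by 0.20 ± 0.0653, with each pooled call past the threshold. Rad51d was at 0.13 ± 0.0623 in SAM1 (limma adjusted p = 0.0737) and 0.16 ± 0.0623 in SAM2 (adjusted p = 0.0328), and no difference between the lines was called (0.031, adjusted p = 0.682). Its pooled value was 0.15 (adjusted p = 0.072), and in SAM1 it was called in 5 alternatives. The small rises of Rad51c and Rad51d were lost with 1 library left out and in other alternatives. The pooled call of Rad51c was also lost with quantile normalization, the replicate block, edgeR and DESeq2, and its call in SAM2 was lost in 6 of 18 alternatives. The call of Rad51d in SAM2 was also lost with quantile normalization, edgeR and DESeq2. The pooled adjusted p of Rad51c (limma) was 0.0895 without Empty replicate 1 and 0.0668 without Empty replicate 2. That of Rad51d in SAM2 was 0.0814 without Empty replicate 2, 0.0579 without Empty replicate 3 and 0.173 without SAM2 replicate 1.

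Among the partners of strand exchange, Rad51ap1, Rad54l and Rad54b rose and Rad52 followed another course. Rad51ap1 (chr6:126899446-126916587, minus strand), which stimulates strand invasion, had 379.5, 431 and 423 normalized counts in Empty, 877, 938 and 866 in SAM1 and 948, 934 and 931 in SAM2. Rad54l (chr4:115948561-115980894, minus strand), a DNA translocase of the same step, had 317, 354 and 327 in Empty, 772, 690.3 and 711 in SAM1 and 768, 743 and 744 in SAM2. In both genes neither line overlapped Empty and the lines overlapped each other. The pooled rise was 2.23-fold for Rad51ap1 (1.16 ± 0.0584, limma adjusted p = 3.81e-07) and 2.21-fold for Rad54l (1.15 ± 0.0597, adjusted p = 4.51e-07). Rad54b, the paralog of Rad54l, was 1.95-fold higher in SAM1 and 1.67-fold in SAM2.

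Rad52 (chr6:119879319-119900382, plus strand), which anneals single strands, had 441, 461 and 431 normalized counts in Empty, 424, 446 and 431 in SAM1 and 516, 552 and 544 in SAM2. SAM2 lay above the other 6 libraries and SAM1 overlapped Empty. It was higher in SAM2 than in Empty by 0.27 ± 0.0536 (log2 scale, SE, limma adjusted p = 0.000481) and not called in SAM1 (-0.035 ± 0.0536, adjusted p = 0.574) or pooled (0.12 ± 0.101, adjusted p = 0.348). Calls in SAM2 and not in SAM1 were made for Rad52, Brca2, Ube2t, Mre11a and Rad51d, and in the first 4 of these SAM2 was also called higher than SAM1. That last call was lost in 10 of 18 alternatives for Mre11a, 8 for Ube2t and 3 for Brca2.

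Of the 6 end resection genes, Exo1, Dna2, Rbbp8 and Rad50 were called higher pooled (26.8% of all genes were), and Nbn and Mre11a were not. EXO1 and DNA2 are the nucleases that extend the tail. Exo1 (chr1:175708143-175741055, plus strand) had 489, 501 and 556 normalized counts in Empty, 1202, 1219.6 and 1222 in SAM1 and 989, 962 and 986 in SAM2. Dna2 (chr10:62782733-62809965, plus strand) had 148, 132 and 173 in Empty, 362, 351 and 337 in SAM1 and 278, 300.4 and 282 in SAM2. The groups did not overlap for either gene, with SAM2 between Empty and SAM1. Exo1 was 2.36-fold higher in SAM1 and 1.901-fold in SAM2, and Dna2 2.32-fold and 1.901-fold. Rbbp8, for the MRE11 cofactor CtIP, was 1.495-fold higher pooled (limma adjusted p = 2.8e-05).

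Of the complex that starts resection, Rad50 rose in both lines, Nbn in SAM1 and Mre11a, by a small step, in SAM2. Rad50, the clamp that tethers ends, was 1.28-fold higher in SAM1 and 1.499-fold in SAM2, from a mean of 1751 ± 91.7 (SD, n = 3). Nbn (chr4:15957896-15993588, plus strand), which brings the complex to ATM, had 1307, 1276 and 1272 normalized counts in Empty, 1545, 1551 and 1573 in SAM1 and 1296, 1280.5 and 1272 in SAM2. The SAM1 libraries lay above the other 6, and SAM2 overlapped Empty. Nbn was higher in SAM1 by 0.28 ± 0.0342 (log2 scale, SE, limma adjusted p = 7.16e-06) and not called in SAM2 (-0.0028 ± 0.0342, adjusted p = 0.947).

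Mre11a (chr9:14695512-14749335, plus strand), the nuclease of the complex, had 2531, 2445 and 2547 in Empty, 2509, 2511 and 2538 in SAM1 and 2724, 2631 and 2636 in SAM2. SAM2 lay above the other 6 libraries by a small margin, and its rise of 0.087 ± 0.0315 (limma adjusted p = 0.025) was lost without Empty replicate 2 (adjusted p = 0.0816) or SAM2 replicate 1 (adjusted p = 0.109). The call was also lost with edgeR and with DESeq2. In the reported fit the 3 subunits of 1 complex therefore gave 3 patterns over the groups. Their pooled differences were 0.47 ± 0.081 for Rad50 (limma adjusted p = 0.000924), 0.14 ± 0.0859 for Nbn (adjusted p = 0.207) and 0.047 ± 0.0393 for Mre11a (adjusted p = 0.342). With each library scaled to the sum of its listed values, Mre11a was also called higher in SAM1 (limma adjusted p = 0.00072) and pooled (adjusted p = 0.00211). Nbn was then called higher in SAM2 (limma adjusted p = 0.0172) and pooled (adjusted p = 0.0438), so the 3 patterns rested on the scaling.

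The nucleases that cleave joint molecules were higher except for Mus81. Eme1 (chr11:94535822-94544812, minus strand, 9 exons), for a partner of the MUS81 nuclease, had 219.9, 206 and 209 normalized counts in Empty, 514, 547 and 559.6 in SAM1 and 386, 406 and 370.2 in SAM2. Mus81 (chr19:5532373-5538448, minus strand) had 587, 639 and 597 in Empty, 493, 532 and 465 in SAM1 and 539, 547 and 475 in SAM2. The groups were apart for Eme1, with SAM2 in between, whereas for Mus81 all Hnrnpk_SAM libraries lay below Empty and the lines overlapped. The products work as a pair, and their transcripts went in opposite directions: Eme1 was 2.16-fold higher pooled (1.11 ± 0.148, limma adjusted p = 0.000186) and Mus81 was lower, with a log2 difference of -0.26 ± 0.0707 (adjusted p = 0.0119). The call for Mus81 was lost without Empty replicate 2 (adjusted p = 0.0581) and with scaling to the sum of listed values (adjusted p = 0.132). Of the exon bases of Eme1, 53.8% lie opposite Lrrc59 or Mrpl27, which had mean normalized counts of 28347 and 1231 in Empty and were both lower pooled (-0.25 and -0.39).

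Gen1 (chr12:11287540-11316033, minus strand), a resolvase of Holliday junctions, had 379, 333 and 377 normalized counts in Empty, 854, 767 and 817 in SAM1 and 568, 593 and 665 in SAM2. The groups did not overlap, and SAM2 was again between the others. Gen1 was 2.24-fold higher than Empty in SAM1 and 1.67-fold in SAM2. Slx4, the scaffold that binds MUS81-EME1, had a smaller difference. Its means were 1547 ± 133 in Empty, 1910.0 ± 131 in SAM1 and 1726 ± 16.8 in SAM2 (SD, n = 3). Its pooled call (limma adjusted p = 0.022) was lost without Empty replicate 2 (adjusted p = 0.096) or 3 (adjusted p = 0.094), and with quantile normalization. The call of Slx4 in SAM2 was lost in 9 of 18 alternatives.

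Polq (chr16:36832108-36915779, plus strand, 30 exons) encodes polymerase theta, which joins resected ends by short matching sequences where recombination fails. Its normalized counts were 524, 419 and 472 in Empty, 1436, 1269 and 1427 in SAM1 and 922, 822 and 851 in SAM2. The groups were apart, with every SAM1 library above every SAM2 library. Polq was 2.92-fold higher in SAM1 (log2 1.55 ± 0.0776, SE, limma adjusted p = 7.68e-10), the largest rise of the 36 genes in that line, and 1.84-fold in SAM2 (0.88 ± 0.0776, adjusted p = 3.12e-07). The difference between the lines, -0.67 ± 0.0776 (adjusted p = 7.79e-06), was also the largest of the 36.

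Each line was also set against Empty on its own, with the same 3 Empty libraries for both. In SAM1, 26 genes were called higher and 4 lower, against 37.3% and 36.9% of all genes, with a median of 0.55. In SAM2, 30 were called higher and 3 lower, against 35.2% and 35.3%, with a median of 0.48, and without SAM2 replicate 3 the number lower was 1. Scaling to the sum of listed values gave 29 higher and 1 lower in SAM1, and 31 higher and 1 lower in SAM2. A rise of 2-fold or more was called for 11 genes in SAM1 (30.6%, against 12.7% of all genes) and 4 in SAM2 (11.1%, against 8.52%). The 4 in SAM2 were Brca1, Fancd2, Rad51ap1 and Rad54l, and SAM1 had these and Polq, Exo1, Dna2, Eme1, Gen1, Fanca and Fancm. In both lines 25 genes were called higher (25.9% of all genes were), 3 were called lower in both (26.4%), and none was called in opposite directions (5.83%). Of the 25, some alternatives lost the SAM2 call of Rad51c, Xrcc3 and Slx4 and the SAM1 call of Palb2 and Rad51c. Fancf was called in neither line.

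**Figure D4:**
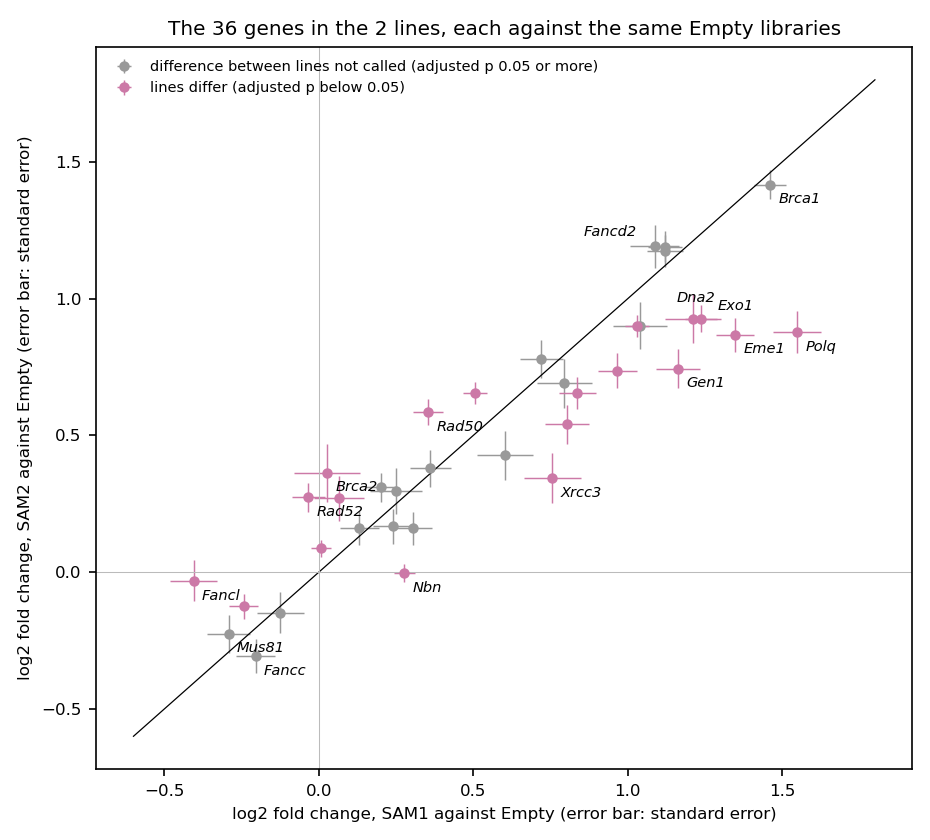
log2 fold change of each of the 36 genes against Empty in SAM1 (x axis) and in SAM2 (y axis), with standard errors as bars and the line of equal change. Because both axes share the Empty libraries, the closeness of points to that line is no result. Polq, Eme1, Gen1 and Xrcc3 lie below the line, and Fancl, Brca2 and Rad52 above it.

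Compared directly, the lines differed in 19 of the 36 genes (52.8%, against 60.3% of all genes). Of these, 8 were higher in SAM2 than in SAM1 (against 31.1%) and 11 lower (29.2%), and the median was -0.034. These shares were near or below those of all genes. The count of 8 was 4 without SAM1 replicate 2 or SAM2 replicate 1, and 5 without SAM1 replicate 3 or SAM2 replicate 2. Of the 25 genes higher in both lines, 10 were lower in SAM2 than in SAM1 (Fanca, Fancb, Fanci, Xrcc3, Rad54b, Exo1, Dna2, Gen1, Eme1 and Polq), 2 were higher (Rad50 and Rbbp8), and for 13 no difference was called. The last included Brca1 (-0.044 ± 0.0519, SE), Fancd2 (0.10 ± 0.0793), Rad51ap1 (0.070 ± 0.0556) and Rad54l (0.055 ± 0.0586), the genes that were 2-fold or more higher in both lines. The largest differences were those of Polq, Eme1 (-0.48 ± 0.0622, limma adjusted p = 2.16e-05), Gen1 (-0.42 ± 0.0721, adjusted p = 0.000244) and Xrcc3, followed by Fancl and Brca2. In the S phase list 24 of 41 genes were lower in SAM2 than in SAM1 and 6 higher, with a median of -0.15, and in the G2/M list 26 of 54 were lower and 8 higher (-0.11). The part of these lists in the differences between the lines was not tested.

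Other genes of recombination and crosslink repair were read from a list of 47, written by hand from general knowledge, all of which were listed. Of these, 25 were called higher pooled, 12 lower and 10 in neither direction (26.8% and 27.0% of all genes were higher and lower), with a median of 0.21. The smallest adjusted p-values were those of Rmi1, a subunit of the BLM dissolvasome (347 in Empty, 699 in SAM1 and 779 in SAM2, limma adjusted p = 1.29e-06), Rpa1, the largest subunit of the single-strand binding protein RPA (0.45, adjusted p = 2.1e-06), and Parpbp, which restrains recombination (1.18, adjusted p = 3.61e-06). The annotated start of Rmi1 overlaps that of Hnrnpk on the opposite strand.

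The 15 genes of non-homologous end joining, the pathway that seals ends without a template, had 5 called higher, 6 lower and 4 in neither direction, and a median of 0.028. With 26.8% of all genes higher and 27.0% lower, these counts lie near the background. Shld2, a shieldin subunit that opposes resection, was higher (0.59, limma adjusted p = 1.19e-05), and Xrcc4 (-0.56, adjusted p = 7.47e-05) and Xrcc5, for the Ku80 subunit (-0.56, adjusted p = 9.08e-05), were lower.

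Between genes, levels were compared per kilobase of the canonical transcript. In the Empty libraries the highest mean levels were those of Fance (643 normalized counts per kilobase), Nbn (507), Mre11a (375), Rbbp8 (361) and Rad50 (334), so the genes that start resection were among the most abundant. The lowest were Dna2 (36.04), Rad54l (38.5), Xrcc3 (45.4) and Palb2 (49.4). Of the 12 most abundant genes 5 were called higher pooled and 3 lower (26.8% and 27.0% of all genes were), with a median log2 difference of 0.13. In the middle 12 and in the lowest 12, 10 each were called higher and none lower, with medians of 0.71 and 0.96. Spearman's rho between level and pooled difference was -0.564 over the 36 genes, which share the Empty libraries in both measures.

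**Figure D5:**
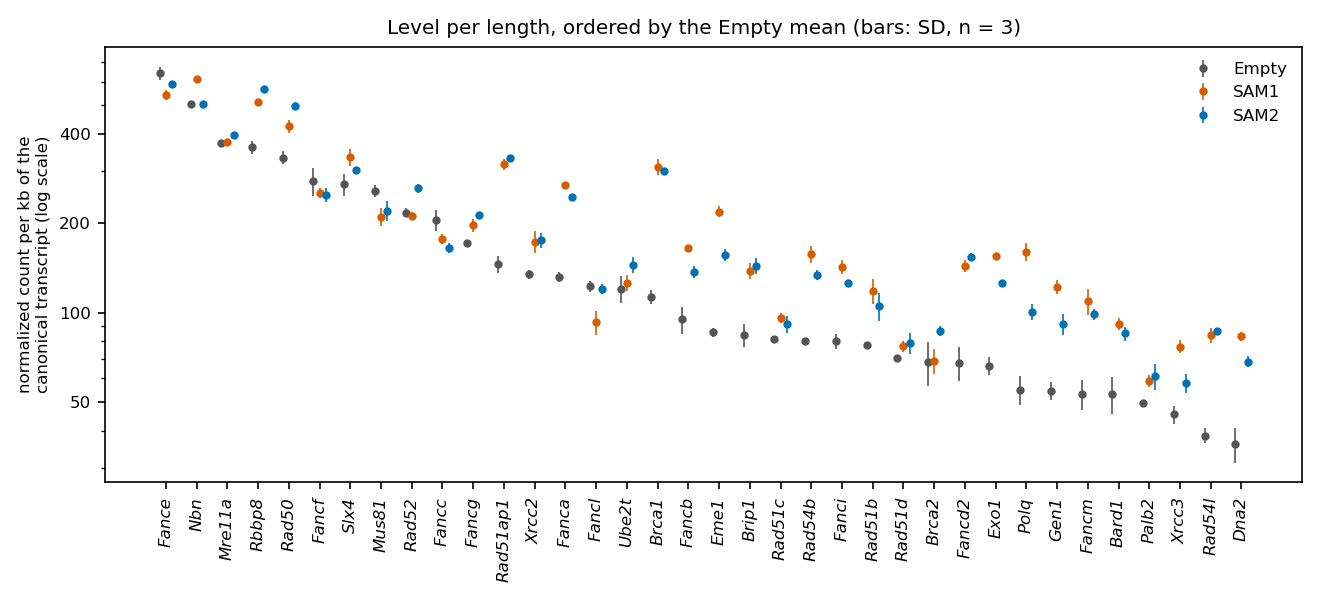
Mean normalized count per kilobase of the canonical transcript (y axis, log scale; bars, SD of 3 libraries) of the 36 genes in Empty, SAM1 and SAM2, ordered by the Empty mean (x axis). Fance and Nbn stand at the left as the highest, and most genes on the right lie well above Empty in both lines.

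The 36 genes were spread over the genome, with 7 on chromosome 11 and none on chromosome 14. For Brca1 the median pooled difference of listed genes within 2 Mb was -0.11, for Polq -0.20, for Eme1 0.058 and for Gen1 -0.12. For Rad52 it was 0.31 and for Rad50 0.23. In SAM2 against Empty the median of these neighbours was 0.41 for Rad52, itself at 0.27, and 0.32 for Rad50, itself at 0.58. The part of the neighbourhood in the values of the members was not tested. A start head to head with another listed gene within 1 kb was annotated for 7 genes. Palb2 and Dctn5 start 14 bases apart, and Dctn5 was lower where Palb2 was higher (-0.41, limma adjusted p = 4.95e-06). Smc6, 102 bases from the start of Gen1, was lower (-0.20, adjusted p = 0.00306), as was Zfyve21 next to Xrcc3 (-0.80, adjusted p = 2.38e-06), and Nbr1, 676 bases from Brca1, was not called pooled (0.10, adjusted p = 0.0557). The partners of Rad51b and Rad51ap1, Zfyve26 and D6Wsu163e, were higher by 0.31 and 0.30.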

How the data were processed

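PolyA+ RNA of 9 libraries (3 Empty, 3 SAM1 and 3 SAM2, grouped by their labels) was sequenced by the authors in pairs of 43 bases from a directional kit. Per the study's methods and processing notes, the authors checked reads with FastQC 0.11.0, aligned them to GRCm39 with TopHat2, Bowtie2 and SAMtools, counted them per gene with HTSeq, divided the counts by DESeq2 size factors and kept genes above 10 in 30% of samples. What the authors deposited is thus a normalized signal in units of counts, and genes below that filter were not analysed here.

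The members and all gene lists were chosen with earlier results of these data known. limma 3.58.1 (R 4.3.3, empirical Bayes with a trend, two-sided) was fitted to log2(value + 1), where 1 is the pseudocount, over all 15184 genes, once with 2 groups (6 Hnrnpk_SAM against 3 Empty) and once with 3, adjusted by Benjamini-Hochberg at a threshold of 0.05. Fold changes are on the log2(value + 1) scale. In 8 libraries 100% of values were whole multiples of 1 read within 0.001 reads. SAM2 replicate 1 was not recovered, since its step lay too close to 1 for the check used here, and edgeR 4.0.16 and DESeq2 1.42.0 were run as alternatives on the reads of the other 8. Replicate pairs differed by more than sampling noise (chi-square per gene from 1.46 to 13.8). The other alternatives were pseudocounts of 5 and 0.5, genes above 10 in every library, quantile normalization, scaling to the sum of listed values, no trend, the replicate block, and each library left out in turn.

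Named with values in every library were the 8 members with the largest called pooled rise, the 8 with the lowest pooled difference, the 6 with the largest called difference between the lines, and any with the lines called in opposite directions (none). The other repair lists were summarized by counts, with the 3 smallest adjusted p-values named, and 1 gene of them is not reported here by name. Genes on the opposite strand of a member, or starting head to head with it, were named by position after values were seen. The S phase and G2/M lists came from Seurat 5.3.0, with names put in mouse case. Positions, lengths and promoters were taken from GENCODE vM39 on GRCm39, where all 36 members were found once.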

Additional observations from a re-analysis of the deposited data

Results flagged for a closer look

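For 19 of the 36 genes the change against Empty differed between the lines, by a direct test of SAM2 against SAM1 in the 3-group limma fit (adjusted p under the threshold). The values below are log2 differences, SAM2 minus SAM1, and the causes were not tested. In the same test 60.3% of all listed genes were called.

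SAM2 was below SAM1 for 11 genes. The value was -0.67 for Polq, -0.48 for Eme1, -0.42 for Gen1 and -0.41 for Xrcc3, all of which were higher than Empty in both lines. It was -0.31 for Exo1, -0.29 for Dna2, -0.26 for Fancb, -0.23 for Rad54b, -0.18 for Fanci and -0.13 for Fanca, also higher in both lines. Nbn, with -0.28, was higher than Empty in SAM1 only.

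SAM2 was above SAM1 for 8 genes. The value was 0.37 for Fancl, which was lower than Empty in SAM1 only, and 0.34 for Brca2, 0.31 for Rad52, 0.20 for Ube2t and 0.080 for Mre11a, which were higher than Empty in SAM2 only. It was 0.23 for Rad50 and 0.15 for Rbbp8, higher than Empty in both lines, and 0.12 for Fance, lower than Empty in both.

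In all, 8 of the 11 lower calls were made in all 18 alternatives, the exceptions being Fanca, Fanci and Dna2. Of the 8 higher calls, 4 were (Fancl, Rad52, Rad50 and Rbbp8). The call was lost in 11 of the 18 alternatives for Fance, 10 for Mre11a, 8 for Ube2t and 3 for Brca2, and in 3 each for Dna2 and Fanci and 1 for Fanca.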

How the results depend on the processing

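Of 2592 member values recomputed under 18 alternatives, 2434 kept their direction and their side of the threshold, 103 lost a call, 28 gained one and 27 changed sign. Of the 25 genes called higher pooled, 22 were called in every alternative, the exceptions being Palb2, Rad51c and Slx4. None of the 3 called lower was (Fancc, Fance and Mus81). The counts that kept calls throughout were 24 of 26 higher and 1 of 4 lower in SAM1 (Fancl), 24 of 30 higher and 1 of 3 lower in SAM2 (Fancc), and 4 of 8 higher and 8 of 11 lower for SAM2 against SAM1. Depth sets further limits: the reads of 1 library were not recovered, and genes under the authors' filter were not analysed here.

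Scaling to the sum of listed values raised the median of all genes by 0.12 pooled, 0.14 in SAM1 and 0.10 in SAM2. It took the number of genes called lower to 0 pooled, 1 in SAM1 and 1 in SAM2, the number higher in SAM2 than in SAM1 to 5, and the median of the 36 genes to 0.65 pooled, 0.70 in SAM1 and 0.59 in SAM2. Quantile normalization gave medians of 0.42, 0.46 and 0.37. The number higher in SAM2 than in SAM1 was also 5 with no trend, with edgeR and with DESeq2. The cause was not tested.

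With 1 library left out, the genes called pooled numbered 23 to 28, higher 23 to 25 and lower 0 to 3 (0 without Empty replicate 2). In SAM1 they numbered 29 to 31, higher 25 to 27 and lower 4 to 5. In SAM2 they numbered 28 to 33, higher 25 to 30 and lower 1 to 3 (1 without SAM2 replicate 3). Between the lines they numbered 14 to 20, higher 4 to 8 (4 without SAM1 replicate 2 or SAM2 replicate 1, 5 without SAM1 replicate 3 or SAM2 replicate 2) and lower 10 to 13. The medians ranged from 0.49 to 0.57 pooled, 0.52 to 0.59 in SAM1, 0.44 to 0.54 in SAM2 and -0.056 to -0.020 between the lines.

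The sign changes were all in values that had no call in the reported fit. Against Empty in SAM1, scaling to the sum gave 0.017 for Fancf and 0.11 for Rad52, and quantile normalization -0.057 for Ube2t and -0.015 for Brca2. In SAM2, scaling to the sum gave 0.071 for Fancl and 0.10 for Nbn (called higher, limma adjusted p = 0.0172). Between the lines, scaling to the sum, edgeR and DESeq2 gave -0.0070, -0.036 and -0.032 for Rad51d and -0.021, -0.031 and -0.027 for Xrcc2. The other sign changes came with 1 library left out, which gave -0.13 to 0.11 for Brca2 and -0.011 to 0.018 for Mre11a in SAM1 against Empty (both lowest without Empty replicate 2), and -0.061 to 0.0027 for Fancl and -0.010 to 0.0096 for Nbn in SAM2. Between the lines they gave -0.063 to 0.0085 for Fancf, -0.0035 to 0.13 for Palb2, -0.032 to 0.074 for Rad51d and -0.026 to 0.086 for Xrcc2.

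Whether the replicate numbers in the labels pair the libraries is not stated there, and the reported fit has no replicate block. Deviations from the group means of same-numbered libraries correlated weakly, with r from 0.0024 to 0.117 (9 pairs, mean 0.0531), and those of others with a mean of -0.0265 (18 pairs). For 8 of 9 libraries the best match in another group had their own number, and for 6 both same-numbered libraries correlated above all others, a hint of pairing from the data only. With the replicate block, 24 genes were called higher and 3 lower pooled, 27 and 4 in SAM1, 30 and 3 in SAM2, and 8 and 13 for SAM2 against SAM1.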
